A study of Mus musculus with 5 samples.

Results

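Fresh BD Rhapsody and fresh 10x libraries of mouse mammary tumours were compared cell type by cell type, in epithelial, fibroblast and myeloid cells. The members were cells chosen by a few defining genes, counted per 10000 UMIs of a cell. Epithelial cells had a sum of Krt8, Krt18 and Epcam of at least 15. Fibroblasts had a sum of Col1a1, Col1a2 and Col3a1 of at least 30 and an epithelial sum under 8. Myeloid cells held at least 10 UMIs of C1qa, C1qb and C1qc, with the same limit on the epithelial sum. These gates took 6389 of the 7772 cells in the 3 fresh libraries, and the series holds 15958 cells in 5 libraries.

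The series compared single-cell platforms on digested PyMT tumours, which arise in mice that carry the polyoma middle T antigen as a transgene. All groups share this model, the digestion and an enrichment for viable cells. The labels state neither the promoter of the transgene nor the strain, the age of the mice or the number of animals behind each library. Fresh 10x was 2 libraries, called fresh 10x 1 and fresh 10x 2, made with the 10x Genomics single cell 3' v2 kit. Fresh BD was 1 library made with the BD Rhapsody whole transcriptome kit. Both kits count unique molecular identifiers (UMIs), so a count is a count of captured transcripts. A 10x library of a digest kept overnight at 4 °C is called stored 10x, and a further BD library, whose title says fresh and whose file name says 24 h, is called BD 2. Stored 10x entered no test, and BD 2 entered tests only as an alternative.

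With 1 fresh BD library, a platform difference cannot be told apart from a difference between tumours or library runs. The tests below measure the difference against the spread of the fresh 10x pair, which the labels do not say came from separate animals.

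The epithelial gate held 1396 cells of fresh 10x 1, 1430 of fresh 10x 2 and 2528 of fresh BD. The fibroblast gate held 254, 170 and 332 cells in the same order, and the myeloid gate 44, 69 and 167. The summed counts ranged from 295824 UMIs in the myeloid cells of fresh 10x 1 to 44237846 in the epithelial cells of fresh BD, so the myeloid values are the least precise. The median myeloid cell had 6553 and 5592 UMIs in fresh 10x and 12204 in fresh BD. The median epithelial sum inside the gate was 50.02 and 47.5 per 10000 in fresh 10x and 29.8 in fresh BD. The fibroblast gate ran the other way, with a median collagen sum of 349.7 and 332.9 in fresh 10x and 442.2 in fresh BD. Cells with an epithelial sum within 3 of the threshold numbered 223 inside and 166 outside for fresh BD, against 18 and 22 for fresh 10x 1 and 23 and 20 for fresh 10x 2. The fresh 10x libraries shared 1 cell barcode. Fresh BD cells are labelled in another form, so a match with them was not possible. At most 1 cell of a library lay in both the fibroblast and the myeloid gate.

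Markers outside the gate genes were checked in each compartment. The epithelial list (Krt19, Krt7, Cldn3 and 6 others) summed to 26.8, 26.1 and 24.2 per 10000 in fresh 10x 1, fresh 10x 2 and fresh BD. The fibroblast list led by Dcn and Lum summed to 124, 127 and 146 in the fibroblast gate, and 0 of its 7 genes was at 0 in any library. The macrophage list summed to 711, 580 and 322 in the myeloid gate. Other cell types were not spread evenly over the platforms. Within the fibroblast gate the 6 mural genes (Rgs5, Acta2, Tagln, Myh11, Notch3 and Des, of pericytes and smooth muscle) summed to 28.3 and 35.1 in fresh 10x and 3.82 in fresh BD. The universal-type fibroblast list (Efemp1, Clec3b, Pi16, Dpp4, Cd34, Ly6c1 and Sema3c) ran the other way, at 12.6, 19.4 and 67.8. In the myeloid gate the 7 T cell genes summed to 3.89 and 1.92 in fresh 10x and 0.0402 in fresh BD, where 3 of them were at 0. The 5 NK genes summed to 1.72, 1.34 and 0.0178. The collagen genes summed to 1.96 per 10000 in the myeloid gate of fresh 10x 1, 14.4 in that of fresh 10x 2 and 3.56 in that of fresh BD. Leaving out fibroblasts with 5 or more per 10000 of the mural genes kept 121, 84 and 286 cells in the same order. Leaving out myeloid cells with a T or NK UMI kept 35, 59 and 156. The cells left out, called mural cells and T and NK cells below, had passed the gates. Whether a call was lost through their removal or through the smaller sums was not tested.

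**Figure D1:**
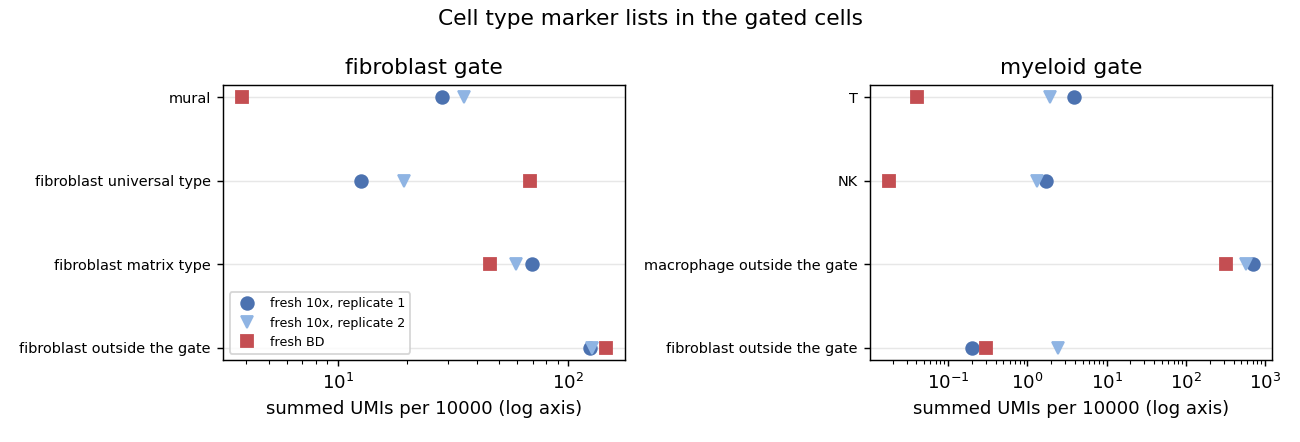
Summed UMIs per 10000 of marker lists (log axis) in the fibroblast gate (left) and the myeloid gate (right), 1 point per library. Mural, T and NK lists lie lower in fresh BD than in both fresh 10x libraries, and the universal-type fibroblast list lies higher.

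A 3' single-cell kit primes on the poly(A) tail, so the share of a gene depends on its transcript end and on the fragments the kit keeps as well as on the cell. The 13 protein genes of the mitochondrial genome encode subunits of the respiratory chain and ATP synthase. Their mRNAs are cut from long polycistronic transcripts, and most, though not all, are polyadenylated. The cytosolic ribosomal proteins come from short, very abundant mRNAs, while Malat1, Neat1 and Xist are long RNAs that stay in the nucleus.

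Over all genes with UMIs on both platforms (19026 genes), the difference was called with edgeR's quasi-likelihood test at an adjusted p under 0.05. In epithelial cells 42.5% of 14295 tested genes were called, 21.1% higher and 21.4% lower in fresh BD. In fibroblasts 46.4% of 11360 genes were called, 22.8% higher and 23.6% lower. In myeloid cells 13.2% of 6708 genes were called, 5.2% higher and 7.99% lower. The counts of family members below are to be read beside these shares. The myeloid count of 885 genes became 1754 with DESeq2 size factors and 2229 without TMM, and the count in all 3 compartments below became 1185 and 1376. Median log2 fold changes over all tested genes were 0.01, 0.02 and 0.01. With library sizes alone in place of TMM scaling these medians became 0.17, 0.10 and 0.34, and the higher share of the calls went from 49.6% to 62.1% in epithelial cells, from 49.1% to 53.9% in fibroblasts and from 39.4% to 70.2% in myeloid cells. Of 6294 genes tested in all 3 compartments, 672 (10.7%) were called in the same direction in each, 224 higher (3.56%) and 448 lower (7.12%). Another 41 genes (0.651%) were called in opposite directions in a pair of compartments.

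The mitochondrially encoded genes took a larger share in fresh BD in every compartment, but the 13 genes did not move together. The sequences of mt-Atp8, mt-Nd3 and mt-Nd4l, short genes with large differences, are printed here from the mouse mitochondrial genome (GRCm38, GENCODE annotation, plus strand), because their length and overlap bear on how a 3' read is assigned. Capitals mark bases that overlap the next gene on the strand.
mt-Atp8 (chrM:7766-7969): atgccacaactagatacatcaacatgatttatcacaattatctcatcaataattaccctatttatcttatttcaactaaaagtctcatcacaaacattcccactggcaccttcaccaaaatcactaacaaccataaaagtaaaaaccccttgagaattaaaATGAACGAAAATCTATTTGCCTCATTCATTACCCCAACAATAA
mt-Nd3, last 300 bases (chrM:9507-9806): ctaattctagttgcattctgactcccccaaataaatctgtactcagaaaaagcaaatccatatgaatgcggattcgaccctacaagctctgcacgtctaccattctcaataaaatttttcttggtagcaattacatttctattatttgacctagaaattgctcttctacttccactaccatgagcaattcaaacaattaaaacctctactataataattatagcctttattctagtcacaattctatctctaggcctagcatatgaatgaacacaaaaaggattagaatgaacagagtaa
mt-Nd4l (chrM:9877-10173): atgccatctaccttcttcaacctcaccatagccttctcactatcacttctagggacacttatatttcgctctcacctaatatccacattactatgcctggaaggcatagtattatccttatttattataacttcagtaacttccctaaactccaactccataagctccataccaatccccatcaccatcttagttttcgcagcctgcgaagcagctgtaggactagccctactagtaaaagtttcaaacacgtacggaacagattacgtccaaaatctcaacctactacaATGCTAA
mt-Atp8 is 204 bases long and shares its last 43 bases with mt-Atp6, and mt-Nd4l (297 bases) shares its last 7 with mt-Nd4. mt-Nd3 (348 bases) overlaps no other gene of this group. Reads from the overlapping pairs could be counted for either gene, so the split within those pairs is uncertain.

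mt-Nd3, a small subunit of respiratory complex I, stood at 3.69 per 10000 UMIs in epithelial cells of fresh 10x 1, 4.76 in fresh 10x 2 and 71.8 in fresh BD. In fibroblasts the levels were 1.81, 2.29 and 25.5, and in myeloid cells 3.96, 4.61 and 33.5. The fresh BD value lay above both fresh 10x values in each compartment, and the fresh 10x pair lay close together. The log2 fold changes were 3.93 (SE 0.18), 3.57 (SE 0.16) and 2.63 (SE 0.19), with edgeR adjusted p of 0.000154, 7.56e-11 and 0.00249. The myeloid change was smaller than the epithelial one by 1.18 on the log2 scale, which did not pass (edgeR adjusted p 0.0741).

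mt-Nd4l and mt-Atp8, subunits of complex I and of ATP synthase, followed. mt-Nd4l had epithelial levels of 4.76, 2.81 and 33.7, fibroblast levels of 2.81, 1.33 and 11.6, and myeloid levels of 3.28, 2.07 and 19.2. mt-Atp8 had epithelial levels of 1.19, 0.663 and 8.01, fibroblast levels of 0.495, 0.282 and 2.2, and myeloid levels of 0.777, 0.47 and 3.58. Both rose in all 3 compartments, with log2 fold changes between 2.23 and 2.99, although fresh 10x 1 was above fresh 10x 2 each time.

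mt-Co1, the catalytic subunit of cytochrome oxidase and the most abundant of the 13 in fresh BD, had epithelial levels of 83.9, 103 and 362, fibroblast levels of 44.2, 49 and 148, and myeloid levels of 76.9, 96.1 and 236. It rose by 1.79, 1.60 and 1.12 on the log2 scale. mt-Nd1, mt-Nd2, mt-Nd4 and mt-Nd5 rose in all 3 compartments too, with log2 fold changes from 0.92 for mt-Nd2 in myeloid cells to 2.59 for mt-Nd5 in epithelial cells. mt-Co2, mt-Cytb and mt-Nd6 rose in epithelial cells and fibroblasts, and in myeloid cells their log2 fold changes of 0.08, 0.40 and 0.88 did not pass.

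mt-Atp6 and mt-Co3, neighbours on the genome that overlap by 1 base, went against the rest. mt-Co3, a subunit of cytochrome oxidase, had epithelial levels of 146, 167 and 117, fibroblast levels of 88.7, 88.2 and 49, and myeloid levels of 140, 167 and 64.5. mt-Atp6, a subunit of ATP synthase, had epithelial levels of 178, 205 and 170, fibroblast levels of 100, 99.5 and 64.6, and myeloid levels of 124, 165 and 86. Fresh BD was the lowest of the 3 libraries each time. Both genes fell in fibroblasts (log2 fold changes of -0.92 and -0.70, edgeR adjusted p 1.67e-05 and 0.000207) and in myeloid cells (-1.58 and -1.08, edgeR adjusted p 0.00299 and 0.0177). In epithelial cells their log2 fold changes of -0.58 and -0.33 did not pass (edgeR adjusted p 0.0595 and 0.247).

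**Figure D2:**
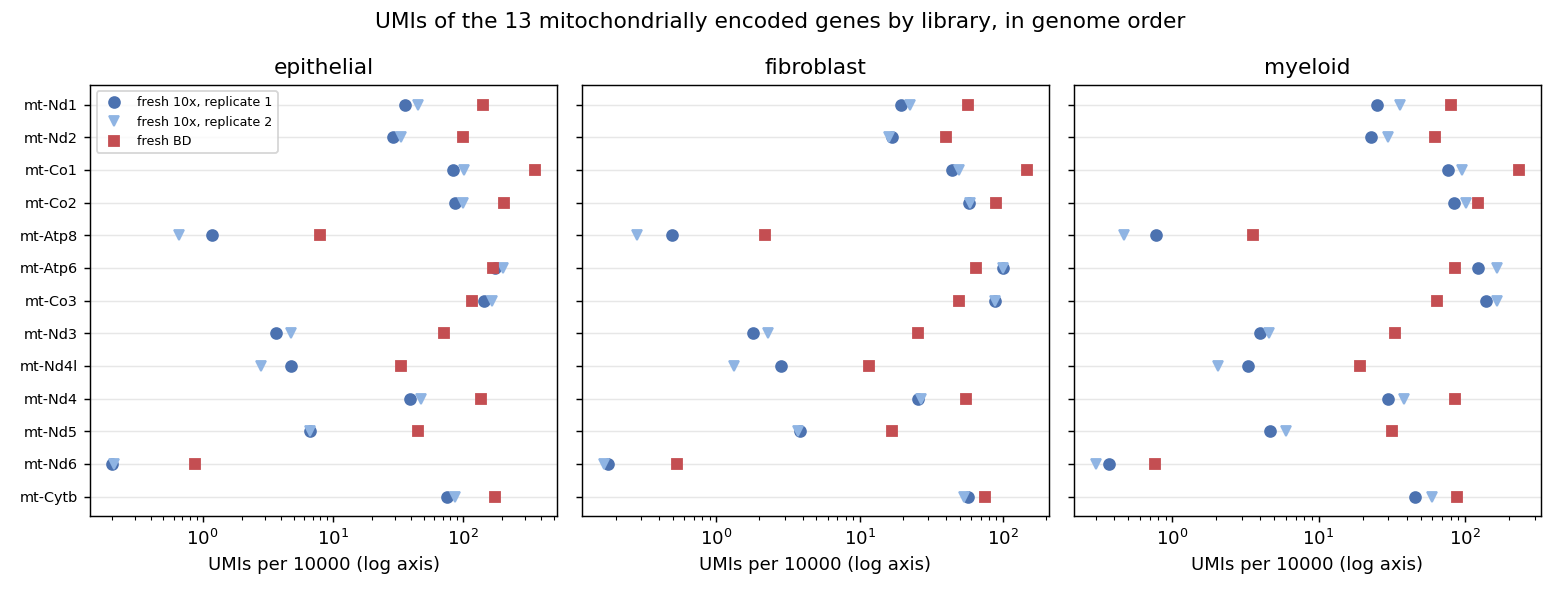
UMIs per 10000 (log axis) of the 13 protein genes of the mitochondrial genome in genome order, 1 panel per compartment and 1 point per library. Fresh BD points lie above both fresh 10x points for most genes and below them for mt-Atp6 and mt-Co3.

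As a family, the 13 mitochondrial genes summed to 692.7 and 804.7 per 10000 in the epithelial cells of fresh 10x and 1578 in those of fresh BD. The sums were 420.1, 422.4 and 635.1 in fibroblasts and 561.3, 706.9 and 915.7 in myeloid cells. Of the 13, 11 rose and 0 fell in epithelial cells, 11 rose and 2 fell in fibroblasts, and 8 rose and 2 fell in myeloid cells, with median log2 fold changes of 1.67, 1.38 and 0.99. The 8 genes that rose in myeloid cells rose in all 3 compartments. No gene of the family passed the test of a difference between compartments. The median mitochondrial share of a cell moved with these values: it was 6.66%, 7.41% and 15.6% in epithelial cells of fresh 10x 1, fresh 10x 2 and fresh BD, 3.97%, 4.07% and 6.03% in fibroblasts, and 5.62%, 5.95% and 8.97% in myeloid cells. Counts of calls without these 13 genes, and with cells of at most 20% mitochondrial UMIs, are given with the other alternatives.

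The cytosolic ribosomal protein genes, which encode the proteins of the translating ribosome, took a smaller share in fresh BD in every compartment. Their 82 genes summed to 2108 and 2082 per 10000 in epithelial cells of fresh 10x and 1302 in fresh BD. In fibroblasts the fresh 10x mean was 1318 against 796.5 in fresh BD, and in myeloid cells the sums were 1665, 1600 and 647.9. In epithelial cells 56 fell and 5 rose, in fibroblasts 56 fell and 7 rose, and in myeloid cells 66 fell and 1 rose. The median log2 fold changes were -1.01, -0.94 and -1.76. Across the 3 compartments 53 of the 82 genes fell in each, beside 7.12% of all genes, and 1 gene, Rpl31, rose in each.

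Rpl13, the most abundant of the family by its mean over the libraries and compartments, stood at 62.7, 59.6 and 18.9 per 10000 in epithelial cells, 44.1, 46.5 and 15.2 in fibroblasts, and 50.7, 49.1 and 11.5 in myeloid cells. Fresh BD was below both fresh 10x libraries throughout, and the gene fell by 1.85, 1.65 and 2.45 on the log2 scale. Rpl31, a protein of the large subunit, ran the other way at 5.34, 5.88 and 18.8 in epithelial cells, 5.36, 6.14 and 16.5 in fibroblasts, and 4.87, 4.97 and 11 in myeloid cells. Its log2 fold changes were 1.59 (SE 0.13), 1.45 (SE 0.15) and 0.83 (SE 0.20), with edgeR adjusted p of 0.000375, 6.96e-07 and 0.046.

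Rps10, a protein of the small subunit, was nearly lost in fresh BD. It stood at 42.3, 42.2 and 1.06 in epithelial cells, 23.8, 24.9 and 0.546 in fibroblasts, and 29.1, 28 and 0.535 in myeloid cells, which are log2 fold changes of -5.47, -5.55 and -6.07. Rps2, another small-subunit protein, fell by 3.43, 3.35 and 3.74 on the log2 scale. Ubb, a polyubiquitin gene, fell in all 3 compartments as well. Ribosomal and ubiquitin genes have near-identical processed copies. Neither platform's counting of such reads is described, and these values are uncertain.

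In 4 ribosomal genes the platform change in myeloid cells differed from that in fibroblasts. The comparison of myeloid cells with fibroblasts called 2.03% of genes in edgeR's interaction test, 1.45% higher and 0.588% lower in myeloid cells, and all 4 ribosomal genes were on the lower side. Rps12 stood at 18.4, 22.8 and 20.2 in fibroblasts and at 26.3, 27.8 and 13 in myeloid cells, a difference of -1.21 (edgeR adjusted p 0.0318). Rps26 rose in fibroblasts from 8 and 9.11 to 28.3, and in myeloid cells it stood at 14.3, 13.4 and 22.1, a difference of -1.22 (edgeR adjusted p 0.0335). Rps27 and Rpl17 differed by -1.14 and -1.10 (edgeR adjusted p 0.0452 and 0.0443). Without myeloid cells that held a T or NK cell UMI, the adjusted p of Rps27 and Rpl17 became 0.0657 and 0.0549. Without fibroblasts that carried mural markers none of the 4 passed, with edgeR adjusted p of 0.208 for Rps12, 0.166 for Rps26, 0.197 for Rps27 and 0.218 for Rpl17.

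Nuclear genes for mitochondrial proteins went against the mitochondrial genome. The nuclear-encoded respiratory chain subunits (76 tested, 75 in myeloid cells) summed to 260.6, 261.6 and 219.3 per 10000 in epithelial cells, 168, 177.5 and 116.1 in fibroblasts, and 165.6, 173.4 and 113.9 in myeloid cells. In epithelial cells 44 fell and 9 rose, in fibroblasts 51 fell and 6 rose, and in myeloid cells 34 fell and 0 rose. The 34 that fell in myeloid cells fell in all 3 compartments. Mitochondrial ribosomal proteins, which translate the 13 mitochondrial mRNAs, behaved alike: 54 of 77 fell in epithelial cells, 56 of 77 in fibroblasts and 21 of 71 in myeloid cells, with 4, 3 and 0 that rose.

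Ndufa11 and Ndufa13, accessory subunits of complex I, had the largest shared decreases of the respiratory chain list. Ndufa11 stood at 1.99, 2.12 and 0.46 in epithelial cells, 2.01, 2.55 and 0.341 in fibroblasts, and 1.18, 1.26 and 0.205 in myeloid cells. It fell by 2.32, 2.81 and 2.90 on the log2 scale, with fresh BD under both fresh 10x libraries each time. Cox4i1, the most abundant nuclear subunit of cytochrome oxidase in the list, fell by 1.06, 1.24 and 1.65, from 13.9 and 13.6 to 7.38 in epithelial cells. mt-Co1 of the same enzyme complex rose in the same cells. Among mitochondrial ribosomal genes, Mrpl12 fell from 2.28 and 1.92 to 0.454 in epithelial cells, and Mrps24 from 2.23 and 2.18 to 0.481, with log2 fold changes between -2.36 and -2.52 over the 3 compartments for both genes.

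**Figure D3:**
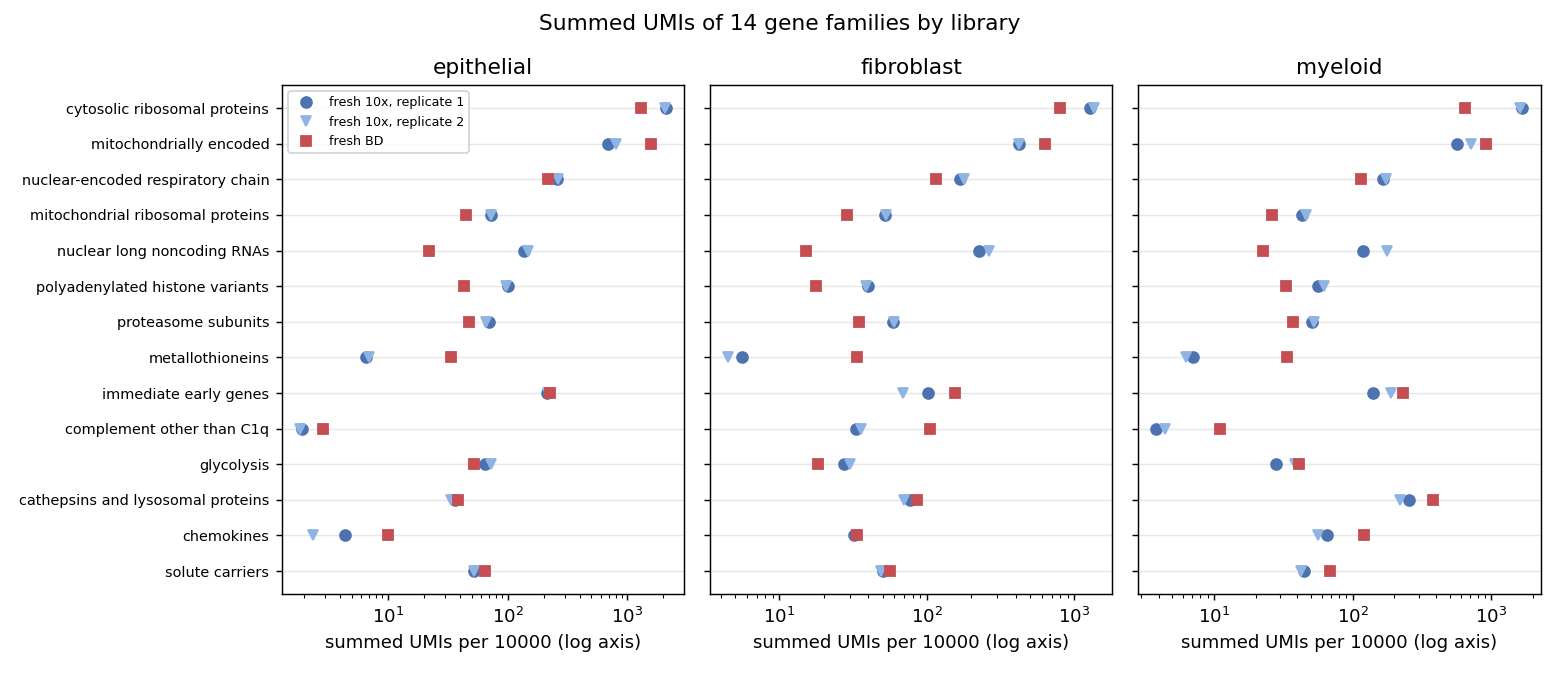
Summed UMIs per 10000 (log axis) of 14 gene families, 1 panel per compartment and 1 point per library. Mitochondrially encoded genes and metallothioneins lie higher in fresh BD than in both fresh 10x libraries in every panel, and ribosomal proteins, respiratory chain subunits and nuclear long noncoding RNAs lie lower.

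The nuclear long noncoding RNAs fell in every compartment. The list of 14, of which 10, 9 and 5 could be tested, summed to 137.4, 149.1 and 22.24 per 10000 in epithelial cells, 224.6, 264.5 and 15.1 in fibroblasts, and 118.4, 176.2 and 22.46 in myeloid cells. 6 fell in epithelial cells, 6 in fibroblasts and 4 in myeloid cells, and 0 rose. Malat1, Neat1, Xist and Kcnq1ot1 fell in all 3.

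Malat1, an abundant nuclear speckle RNA, differed in how far it fell. It stood at 97.5, 118 and 13.9 in epithelial cells, 196, 233 and 7.88 in fibroblasts, and 15.4 in myeloid cells of fresh BD against a mean of 128 ± 38.4 (SD, n = 2) in those of fresh 10x. The fresh 10x fibroblasts held the highest levels and the fresh BD fibroblasts the lowest. Its log2 fold changes were -3.11 (SE 0.23), -4.84 (SE 0.16) and -3.39 (SE 0.28). The fibroblast change was larger than the epithelial one by 1.69 in size (a difference of -1.69, edgeR adjusted p 0.0104) and differed from the myeloid one by 1.56 (edgeR adjusted p 0.0191). Without cells that carried mural markers the adjusted p became 0.0714 and 0.123. Neat1, which scaffolds paraspeckles, fell by 3.19, 3.22 and 2.04, and Xist, which coats the inactive X chromosome, fell by 1.68, 1.27 and 1.71.

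Histone variants and proteasome subunits fell more often than they rose. Over all genes 21.4% fell in epithelial cells, 23.6% in fibroblasts and 7.99% in myeloid cells. Of the polyadenylated histone variants, 6 of 9 fell in epithelial cells, 7 of 9 in fibroblasts and 5 of 8 in myeloid cells. H3f3b, which encodes histone H3.3, went from 64.1 and 63 per 10000 to 20.6 in epithelial cells, from 13.8 and 12.4 to 5.14 in fibroblasts, and from 20.7 and 25.3 to 13.9 in myeloid cells. The proteasome subunits, which form the main protein-degrading complex of the cytosol, fell in 26 of 37 cases in epithelial cells, 27 in fibroblasts and 10 in myeloid cells. Psmb3 fell by 1.93, 2.42 and 2.24 on the log2 scale. Psmc1, an ATPase of the regulatory particle, was the single member that rose in each, from 0.778 and 0.727 to 1.65 in epithelial cells, from 0.686 and 0.7 to 1.16 in fibroblasts, and from 0.439 and 0.491 to 1.44 in myeloid cells.

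Metallothioneins, small cysteine-rich proteins that bind zinc and copper, were higher in fresh BD in all 3 compartments at nearly the same level. Mt1 and Mt2 were chosen for this account after their values were seen. The promoters are shown because both genes are known targets of the metal-responsive factor MTF1. The windows are the 250 bases before the transcription start in RefSeq (GRCm38, plus strand). Capitals mark matches to TGCACNC or TGCGCNC on either strand, the core of the metal response element.
Mt1 promoter (chr8:94178839-94179088): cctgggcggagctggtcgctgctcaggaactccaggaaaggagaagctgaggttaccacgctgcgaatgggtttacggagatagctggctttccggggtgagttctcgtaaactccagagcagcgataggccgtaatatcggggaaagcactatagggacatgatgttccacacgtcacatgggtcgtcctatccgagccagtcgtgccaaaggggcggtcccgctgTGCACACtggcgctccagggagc
Mt2 promoter (chr8:94172368-94172617): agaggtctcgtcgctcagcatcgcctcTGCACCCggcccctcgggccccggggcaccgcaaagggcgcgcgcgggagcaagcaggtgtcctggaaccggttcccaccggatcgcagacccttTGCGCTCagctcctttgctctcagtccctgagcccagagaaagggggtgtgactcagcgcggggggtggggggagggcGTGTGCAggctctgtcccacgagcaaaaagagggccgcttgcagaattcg
The Mt1 window held 1 match, a number reached by 21.41% of 32851 promoter windows, and the Mt2 window held 3, reached by 1.26% of windows. A match is a description of the letters and not a site. Mt1 stood at 5.87, 6.04 and 22 per 10000 in epithelial cells, 4.55, 3.33 and 16.9 in fibroblasts, and 6.76, 6.11 and 25.4 in myeloid cells. Mt2 stood at 0.759, 0.947 and 11.4 in epithelial cells, 1.02, 1.17 and 16.6 in fibroblasts, and 0.304, 0.235 and 8.39 in myeloid cells. Fresh BD lay above both fresh 10x libraries in every case. The log2 fold changes were 1.73, 2.03 and 1.65 for Mt1 and 3.58, 3.84 and 4.65 for Mt2, with edgeR adjusted p between 2.99e-11 and 0.00612. The summed level was 33.47, 33.48 and 33.76 in fresh BD, against 18.47, 17.75 and 16.75 in stored 10x and 35.27, 31.26 and 24.88 in BD 2.

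Single genes with large shared differences lay outside these families. Plau, the urokinase plasminogen activator, rose in all 3 compartments, from 0.0138 and 0.014 to 0.0717 in epithelial cells, from 0.375 and 0.254 to 2.68 in fibroblasts and from 0.744 and 0.64 to 7.57 in myeloid cells. Sept2, a septin filament protein, rose from 0.0473 and 0.0508 to 2.01 in epithelial cells, from 0.0495 and 0.0705 to 3.99 in fibroblasts, and from 0.0676 and 0.0427 to 2.45 in myeloid cells. Its fresh 10x levels lay near the floor, above all in myeloid cells, whose sums held 295824 and 468448 UMIs. Sept2 was named by the family rule, which sets no UMI minimum, so the size of its change is uncertain. Solute carriers, the membrane transporters, rose in 70 of 213 cases and fell in 18 in epithelial cells, rose in 48 and fell in 20 of 152 in fibroblasts, and rose in 7 and fell in 2 of 85 in myeloid cells, where 5.2% of all genes were called higher and the share of this list lies near that. Splicing factors showed no side, with 16 that rose and 15 that fell of 54 in epithelial cells and 12 and 12 of 53 in fibroblasts.

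The log2 fold change, with its sign, rose with the length of the transcript over most of the range. The length is that of the longest transcript of a gene in the GENCODE basic set, with coding ones preferred. It need not be the transcript the cells expressed. Among coding genes with transcripts of 601 to 1000 bases the median log2 fold change was -0.71 in epithelial cells, -1.05 in fibroblasts and -1.26 in myeloid cells. At 4501 to 7000 bases the medians were 0.20, 0.26 and 0.43. In the bin of 601 to 1000 bases 328 of 635 epithelial genes (51.65%) fell and 50 rose. The order was not monotonic at either end: transcripts up to 600 bases had medians of -0.07, -0.32 and -0.85, and those of 7001 bases or more 0.01, 0.03 and 0.27. Across genes, which share libraries and are not independent, Spearman's rho was 0.224 in epithelial cells (13288 genes), 0.256 in fibroblasts (11097) and 0.398 in myeloid cells (6639), with Pearson's r of 0.181, 0.224 and 0.342 for the same genes. The median transcript was 896 bases for the ribosomal proteins, 936 for the respiratory chain list, 1316 for mitochondrial ribosomal proteins and 3432 for solute carriers, against 2978 for all genes tested in epithelial cells. Mitochondrially encoded genes (784 bases) and metallothioneins (798) rose although they are short, and the nuclear long noncoding RNAs (6719) fell although they are long.

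**Figure D4:**
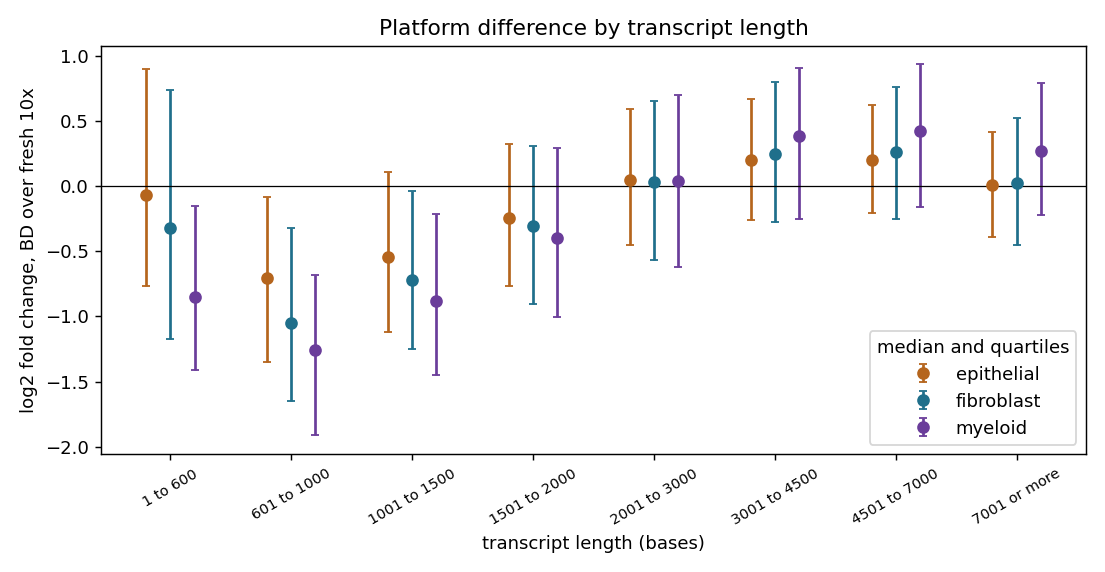
Median (points) and quartiles (bars) of the log2 fold change of fresh BD over fresh 10x in 8 bins of transcript length, 1 series per compartment. The lowest medians are at 601 to 1000 bases, -0.71 in epithelial cells, -1.05 in fibroblasts and -1.26 in myeloid cells.

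Fewer genes were called for a difference between compartments than were called in all 3. In edgeR's interaction test 949 genes had an unadjusted p under 0.05 for fibroblasts against epithelial cells. The numbers were 1119 for myeloid against epithelial cells and 1140 for myeloid cells against fibroblasts. A small number of calls therefore does not show that few genes differed. Across the 6294 genes tested in all 3, the log2 fold changes had a Pearson's r of 0.858 between epithelial cells and fibroblasts, 0.752 between epithelial and myeloid cells and 0.717 between fibroblasts and myeloid cells. These pairs share their libraries, so this describes the tables and is not a test. In edgeR's interaction test 2.27% of genes differed between fibroblasts and epithelial cells (1.13% higher and 1.14% lower in fibroblasts) and 0.413% between myeloid and epithelial cells (0.302% higher and 0.111% lower in myeloid cells). The last split is not stable: of the genes called, 73.1% were higher here, 10.3% with the DESeq2 Wald test, 7.81% with 20 or more UMIs per sum and 14.3% with the C1q gate set per 10000 UMIs.

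Immediate early genes, the transcription factors and regulators that cells switch on soon after a stimulus and that tissue digestion is known to induce, rose in fibroblasts. The 22 genes summed to 101.7, 69.22 and 154.5 per 10000 in fibroblasts, 212.8, 216.4 and 227.3 in epithelial cells, and 139.2, 188.8 and 229.8 in myeloid cells. In fibroblasts 14 rose and 3 fell, with a median log2 fold change of 0.62. In epithelial cells 4 rose and 8 fell, with a median of -0.38. In myeloid cells 3 rose and 0 fell, with a median of -0.27 that became 0.07 without TMM scaling. Over all genes 21.1% rose and 21.4% fell in epithelial cells, and the 4 epithelial rises lay near that share. The shares over all genes were 22.8% and 23.6% in fibroblasts and 5.2% and 7.99% in myeloid cells. The universal-type and mural lists moved with these values in the fibroblast gate, and their part in the result was not tested beyond leaving mural cells out: then 11 rose and 3 fell in fibroblasts, and Jun, Klf2 and Socs3 no longer passed.

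Zfp36, which encodes an mRNA-destabilising protein, rose in all 3 compartments. It stood at 9.53, 10.1 and 33.3 in epithelial cells, 2.01, 1.64 and 12.9 in fibroblasts, and 8.96, 9.09 and 39.8 in myeloid cells. The fresh 10x pair lay close together and fresh BD above it. Its log2 fold changes were 1.60 (SE 0.14), 2.74 (SE 0.17) and 1.81 (SE 0.16), and the fibroblast change exceeded the epithelial one by 1.18 (edgeR adjusted p 0.0469). Nr4a1, an orphan nuclear receptor, rose by 1.88, 1.87 and 2.46, and Egr1, a zinc finger transcription factor, by 0.54, 1.82 and 1.58.

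Klf4, a Krüppel-like transcription factor, fell in epithelial cells and rose in fibroblasts. It stood at 0.994, 1.25 and 0.71 in epithelial cells and at 2.17, 1.85 and 6.56 in fibroblasts. The log2 fold changes were -0.82 (SE 0.15) and 1.63 (SE 0.16), and their difference was 2.46 (SE 0.35, edgeR adjusted p 0.00843). In myeloid cells it stood at 0.744, 2.65 and 1.72, with fresh BD between the fresh 10x libraries. Socs3, a feedback inhibitor of cytokine signalling, fell in epithelial cells (3.18, 2.51 and 1.44) and rose in fibroblasts (3.03, 1.99 and 3.97), a difference of 1.79 (edgeR adjusted p 0.00843). Klf2 behaved alike, at 1.47, 2.33 and 0.797 in epithelial cells and 1.36, 1.57 and 2.1 in fibroblasts, a difference of 1.85 (edgeR adjusted p 0.0261). Myc, a growth-promoting transcription factor, stood at 0.344, 0.357 and 0.428 in epithelial cells and rose in fibroblasts from 0.251 and 0.258 to 0.938, a difference of 1.71 (edgeR adjusted p 0.00227). Fos, a subunit of the AP-1 factor, fell by 0.52 in epithelial cells and rose by 0.81 in fibroblasts, but the difference between these changes did not pass (edgeR adjusted p 0.11). Without mural cells none of the 5 differences passed: edgeR adjusted p was 0.23 for Klf4, 0.298 for Klf2, 0.0516 for Myc, 0.0952 for Socs3 and 0.463 for Zfp36. The fibroblast rises of Klf2 and Socs3 turned negative with BD 2 in place of fresh BD, at -0.68 and -0.16 on the log2 scale.

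**Figure D5:**
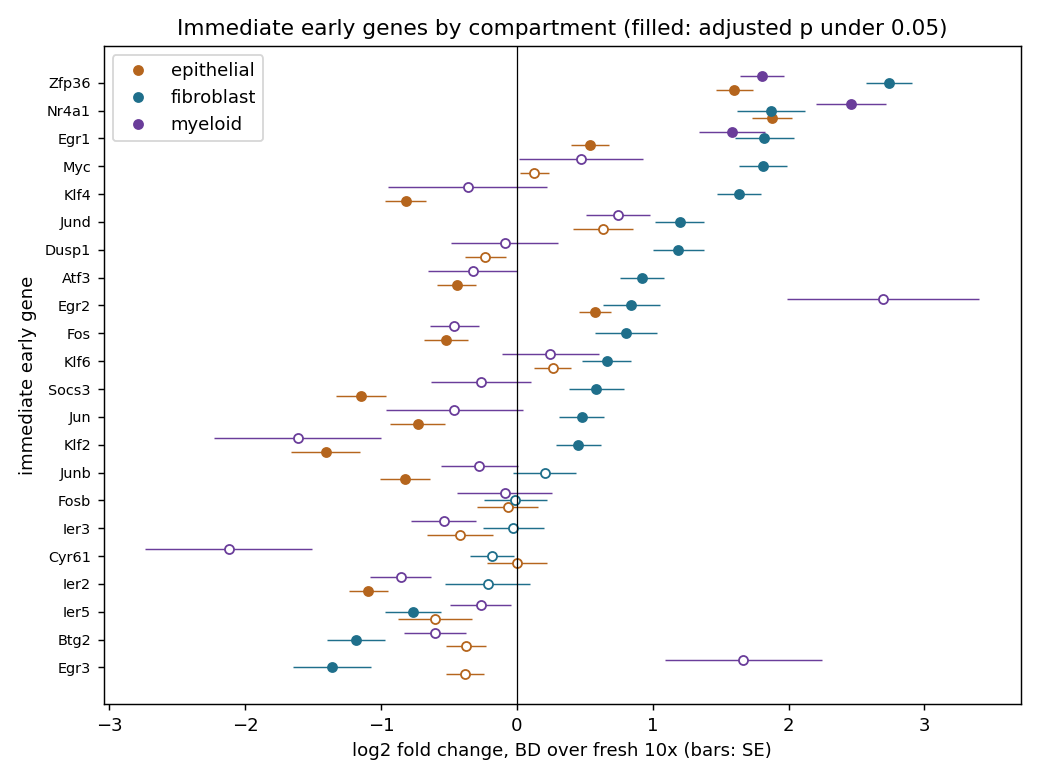
Log2 fold change of fresh BD over fresh 10x with its SE for 22 immediate early genes, 1 series per compartment, with filled points for an edgeR adjusted p under 0.05. Zfp36, Nr4a1 and Egr1 lie above 0 in all 3, and Klf4 lies at -0.82 in epithelial cells and 1.63 in fibroblasts.

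Complement genes, whose products tag cells and microbes for clearance, took a larger share in fresh BD in all 3 compartments. The list without C1q summed to 33.25, 36.01 and 104.2 per 10000 in fibroblasts, where 7 of 10 rose and 2 fell. It summed to 1.931, 1.849 and 2.884 in epithelial cells, where 5 of 13 rose and 1 fell, and to 3.854, 4.44 and 11.13 in myeloid cells, where 2 of 6 rose. Stored 10x held 2.459 in epithelial cells, 59.53 in fibroblasts and 7.796 in myeloid cells, each time between fresh 10x and fresh BD. BD 2 held 2.207, 96.15 and 12.08. Over all genes 21.1% rose in epithelial cells, 22.8% in fibroblasts and 5.2% in myeloid cells. C3, the central complement component, stood in fibroblasts at 4.16, 5.27 and 13.3 (log2 fold change 1.42), and C4b at 3.63, 5.24 and 17.4 (1.90). C1s1 and C1ra, proteases of the C1 complex, rose from 1.5 and 1.93 to 12.2 and from 1.3 and 1.12 to 6.64. Serping1, which inhibits those proteases, rose from 15.5 and 16.3 to 47.6, while Cfb, factor B, fell from 0.184 and 0.263 to 0.0339. C4b and Serping1 were tested for a difference between compartments, and neither passed; most of the list was not tested. The log2 ratio of the fibroblast sum was 1.59 and became 1.22 without mural cells.

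Gstm1, a glutathione transferase, rose in every compartment and furthest in fibroblasts, from 0.53 and 0.531 to 8.13. Its level in epithelial cells was 0.121, 0.144 and 0.397, and the fibroblast change was larger by 2.46 (edgeR adjusted p 0.000684, and 0.0714 without mural cells). Creb5, a transcription factor, stood at 0.312, 0.26 and 0.174 in epithelial cells and 0.548, 0.611 and 1.6 in fibroblasts, a difference of 2.32 (edgeR adjusted p 0.000684, and 0.0716 without mural cells). Pla2g7, which encodes a secreted phospholipase, fell in fibroblasts from 0.572 and 0.352 to 0.0664, a difference of -2.95 from epithelial cells (edgeR adjusted p 0.000684, and 0.0234 without mural cells). Ccnd1, cyclin D1, fell in fibroblasts from 0.286 and 0.432 to 0.0849, and in epithelial cells it stood at 1.4, 2.27 and 2.26, a difference of -2.27 (edgeR adjusted p 0.00196, and 0.23 without mural cells, where its fall in fibroblasts did not pass either).

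The matrix-type list (Cilp, Thbs4, Postn, Comp, Fmod and Cthrc1) summed to 69.7, 59.1 and 45.8 in the fibroblast gate. Single genes of the universal-type, matrix-type and mural lists are part of the list sums, so their changes are not a separate result. Not every member is given. Of the universal type, Cd34 rose from 1.23 and 1.85 to 10.2, Clec3b from 1.84 and 4.07 to 14.8, Ly6c1 from 0.997 and 2.97 to 16.9 and Dpp4 from 0.223 and 0.569 to 2.57. Pi16 stood at 6.03, 6.25 and 8.46 (log2 fold change 0.39). Among matrix-type genes Postn, a matricellular protein, fell from 44.8 and 38.6 to 22.4 and Cthrc1 from 9.11 and 9.35 to 3.52, while Cilp rose from 9.46 and 7.96 to 14.4. Outside these lists, Timp1, an inhibitor of matrix metalloproteinases, fell from 19 and 17 to 4.58. Timp2 rose from 8.6 and 9.79 to 27.2 and Mmp2 from 9.75 and 9.6 to 21.8. The mural genes Rgs5 and Acta2 fell from 6.44 and 9.69 to 1.1 and from 9.33 and 11.5 to 1.31. Stored 10x fibroblasts held a mural sum of 6.35 and a universal-type sum of 44.8, and BD 2 held 4.09 and 58.8, so fresh 10x stood apart from the other 3 libraries in both lists.

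In myeloid cells the lysosomal genes split. Cathepsins and lysosomal proteins, which degrade cargo in lysosomes, summed to 255, 220.1 and 377.1 per 10000, with 6 of 26 that rose and 5 that fell, and their median log2 fold change was 0.08. Over all myeloid genes 5.2% rose and 7.99% fell. Psap, the saposin precursor, rose from 25.1 and 25.3 to 77.4, Grn, the progranulin gene, from 4.94 and 4.7 to 17.8, and Ctsb from 21.5 and 21.5 to 58.5. All 3 rose in epithelial cells and fibroblasts too. Ctsd fell from 28.2 and 19.1 to 10.1 and Ctsz from 18.9 and 16.1 to 8.28, and both fell in the other compartments as well.

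Ctsl, cathepsin L, changed direction between compartments. It stood at 4.1, 3.27 and 1.88 in epithelial cells, 9.69, 9.29 and 7.27 in fibroblasts, and 2.03, 1.62 and 7.44 in myeloid cells. It fell in the first pair by 1.13 (SE 0.18) and 0.46 and rose in myeloid cells by 1.71 (SE 0.25) on the log2 scale. The myeloid change differed by 2.95 from the epithelial one and by 2.25 from the fibroblast one (edgeR adjusted p 0.0042 and 0.00475). The T and NK lists moved with the myeloid values: without cells that held such a UMI the differences were 2.08 and 1.45, with edgeR adjusted p of 0.0699 and 0.0532.

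Glycolysis genes turn glucose into pyruvate and lactate. In epithelial cells 9 of 15 fell and 1 rose, and in fibroblasts 9 fell and 1 rose, while in myeloid cells 0 of 15 passed, with a median of -0.06 that became 0.27 without TMM scaling. The myeloid share called over all genes was 13.2%, and 3 glycolysis genes rose and 2 fell with DESeq2 size factors, and 4 rose and 1 fell without TMM. Pkm, pyruvate kinase, fell from 8.23 and 7.9 to 5.15 in epithelial cells and from 4.58 and 4.24 to 1.93 in fibroblasts, and in myeloid cells it stood at 3.04, 3.99 and 5.16. The myeloid change was above the fibroblast one by 1.56 for Pkm, 1.57 for Pgam1, 1.17 for Pgk1 and 2.86 for the lactate exporter Slc16a3 (edgeR adjusted p 0.0249, 0.0194, 0.0335 and 0.0494). Without T and NK cells the adjusted p was 0.0932 for Pkm, 0.0766 for Pgam1, 0.106 for Pgk1 and 0.15 for Slc16a3. Without mural cells it was 0.146, 0.182, 0.208 and 0.261 in the same order.

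Spp1, osteopontin, fell in epithelial cells from 124 and 79.4 to 28.8 and in fibroblasts from 13.4 and 17.2 to 1.14. In myeloid cells it stood at 6.96, 9.18 and 14.6, with fresh BD the highest of the 3. The myeloid change differed by 2.62 from the epithelial one (edgeR adjusted p 0.027) and by 4.41 from the fibroblast one (edgeR adjusted p 0.00217), the first with an adjusted p of 0.105 without T and NK cells. Fabp5, a fatty acid binding protein, differed between myeloid cells and fibroblasts by 3.30 (edgeR adjusted p 0.0086). Lower in myeloid cells against fibroblasts were AW112010, an interferon-induced transcript, by -3.56 and Txnip, which binds thioredoxin, by -2.46 (edgeR adjusted p 0.000402 and 0.0086). Without mural cells in the fibroblast gate the adjusted p was 0.00573 for AW112010, 0.108 for Txnip, 0.208 for Fabp5 and 0.00651 for Spp1. Cxcl10, an interferon-induced chemokine, fell in epithelial cells and fibroblasts and stood at 2.43, 3.33 and 6 in myeloid cells, a difference of 2.82 from epithelial cells (edgeR adjusted p 0.0471, and 0.0901 without T and NK cells). Cxcl1, which attracts neutrophils, rose in all 3 compartments, by 2.01, 1.95 and 1.76.

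Macrophage genes outside the gate did not move as one. Apoe, a lipid transport protein, fell from 585 and 468 to 171 (log2 fold change -1.96, edgeR adjusted p 0.00269). Csf1r, the receptor of macrophage colony-stimulating factor, rose from 4.83 and 4.97 to 18.1, and Cd68 from 3.08 and 3.37 to 12.3. Lyz2, lysozyme, stood at 59.1, 53.1 and 70.7 and did not pass. H2-Aa, an MHC class II chain, rose from 47.7 and 45.2 to 112. It was the 1 of 7 tested MHC class II genes that rose in myeloid cells, and 2 fell. Their median log2 fold change was -0.07, and the list summed to 325.2, 344.3 and 391.3.

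In epithelial cells the claudins, which seal tight junctions, went both ways. Cldn3 fell from 8.38 and 7.61 to 2.12 (log2 fold change -2.07, edgeR adjusted p 0.000304), while Cldn4 rose from 0.755 and 0.689 to 2.43. Cdh1, E-cadherin, rose from 0.846 and 0.82 to 1.96. Among milk and secretory proteins, Lalba, the lactose synthase cofactor, rose from 11.2 and 15.4 to 69.1. It stood at 0.145, 0.207 and 1.47 in fibroblasts and at 0.203, 0.278 and 1.36 in myeloid cells, low levels that moved with the epithelial one, and the part of free RNA in them was not tested. Csn3, kappa casein, stood at 134, 153 and 178 and did not pass. Lcn2, an iron-siderophore binding protein, fell from 127 and 92.1 to 68.8, and Wfdc18 rose from 55 and 43.4 to 85.9.

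Igkc and Igha, immunoglobulin transcripts of plasma cells, were seen in fresh BD in all 3 gates. They belong to a list of 8 B and plasma cell genes. In fresh 10x 1, fresh 10x 2 and fresh BD this list summed to 0.0113, 0.0097 and 2.95 per 10000 in epithelial cells. The sums were 0.0106, 0.0 and 0.494 in fibroblasts, and 1.99, 1.64 and 2.12 in myeloid cells, where the libraries lay close together. Igkc had 3 and 1 UMIs in the epithelial cells of fresh 10x and 6453 in fresh BD, where 34.9% of the cells held a UMI and 1 cell held 80.9% of them. Fresh BD fibroblasts held 162 UMIs, spread over 34.3% of the cells, and fresh BD myeloid cells 82 UMIs over 36.5%, where the fresh 10x sums listed 0. The share of cells was alike in the 3 gates, at median depths of 13673, 17942 and 12204 UMIs. The part of free RNA in these counts was not tested. Igha was held by 33.0%, 33.1% and 31.1% of the fresh BD cells.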

How the data were processed

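Raw UMI counts per gene and cell, as the authors deposited them, were used for the fresh 10x and fresh BD libraries of digested PyMT tumours. The submitters' processing notes list Cell Ranger 3.0.1 and mm10 for every sample, with no role. For the BD libraries the counting program and annotation were not given in the sources used here. A deposited matrix that pools the fresh 10x libraries was not used, and 0 columns of other samples were used. Different spellings of gene names were merged into 41028 names, of which 19026 had UMIs on both platforms, 1279 in fresh 10x alone and 2745 in BD alone. The shared names held 99.8% of the UMIs of each platform.

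Cells were gated per library and their UMIs summed. The difference of 1 fresh BD from 2 fresh 10x sums was fitted per compartment with edgeR 4.0.16 in R 4.3.3 (TMM scaling, filterByExpr, quasi-likelihood test, Benjamini-Hochberg adjustment over all genes tested, threshold 0.05). Differences between compartments were interaction terms in 1 model of 9 sums with the library as a block. Levels are UMIs per 10000 summed UMIs. Each SE was worked back from the test, as the absolute log2 fold change over the square root of its F statistic. It was not estimated separately. Intervals of the tests cover the spread between these libraries only. The fitting code was tested on simulated data. Promoter and length tables were read with Python 3.11.15, pandas 2.3.3, numpy 2.4.6 and scipy 1.17.1, and figures drawn with matplotlib 3.10.9. No doublet caller was run. Gate overlaps were counted and strict gates tried instead.

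The members and lists were chosen with earlier results of these data known. Genes were named by a rule over 41 families: up to 4 most abundant members and up to 2 with the largest shared change each way, then, among genes with 20 or more UMIs per sum, the 5 largest shared changes each way and the 5 largest differences each way per pair of compartments. 71 genes with a synonym or suffixed name on 1 platform alone were left out of the last 2 steps. Other genes named were chosen after their values were seen, among them Mt1, Mt2, the subset markers, Csf1r, Cd68, Apoe, Cdh1 and the immunoglobulin genes. 18 alternatives were planned, DESeq2 1.42.0 among them, and 2 gates were added after seeing the data: fibroblasts without cells at 5 or more per 10000 of the mural list, and myeloid cells without a T or NK UMI. Some genes picked by the naming rule are not reported here.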

Additional observations from a re-analysis of the deposited data

Results flagged for a closer look

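Each value here is a difference between 2 compartments in the log2 fold change of fresh BD over fresh 10x that passed edgeR's interaction test. They are among the genes named by rule or described in the text, out of 143, 26 and 128 genes that passed for the 3 pairs.

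In fibroblasts the change was above that in epithelial cells by 3.38 for AC160336.1 (an unnamed gene model, whose counting is uncertain), 2.66 for Ramp2, a receptor-modifying protein, 2.46 for Gstm1, 2.46 for Klf4, 2.32 for Creb5, 1.85 for Klf2, 1.79 for Socs3, 1.71 for Myc and 1.18 for Zfp36. Ramp2 stood at 0.0247, 0.0326 and 0.0127 per 10000 in epithelial cells of fresh 10x 1, fresh 10x 2 and fresh BD and at 0.364, 0.475 and 1.08 in fibroblasts. It was below by -2.95 for Pla2g7, -2.48 for Gcnt2, -2.35 for Adgre5, -2.27 for Ccnd1, -2.12 for Slc7a2 and -1.69 for Malat1. Without cells that carried mural markers, Pla2g7 (-3.42) and AC160336.1 (3.25) were the 2 genes that passed, both with an edgeR adjusted p of 0.0234.

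In myeloid cells the change was above that in epithelial cells by 2.95 for Ctsl, 2.82 for Cxcl10, 2.62 for Spp1, 1.82 for Kctd12 and 1.68 for Pgam1, and below by -1.76 for AW112010. Kctd12 stood at 2.03, 2.6 and 7.11 in myeloid cells. None of these 6 passed without cells that held a T or NK UMI, where the edgeR adjusted p ranged from 0.0699 to 0.239.

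Against fibroblasts, the myeloid change was above by 4.41 for Spp1, 3.47 for Pla2g7, 3.3 for Fabp5, 2.97 for Fcgr2b, an inhibitory Fc receptor, 2.86 for Slc16a3, 2.39 for Ptpre, a tyrosine phosphatase, 1.57 for Pgam1, 1.56 for Pkm, 1.56 for Malat1 and 1.17 for Pgk1. It was below by -3.56 for AW112010, -2.71 for Ifi27l2a, -2.46 for Txnip, -1.91 for Gsn, -1.91 for Klf2, -1.22 for Rps26, -1.21 for Rps12, -1.14 for Rps27 and -1.1 for Rpl17. Fcgr2b stood at 1.18, 1.62 and 4.86 in myeloid cells, and Gsn, which severs actin filaments, at 8.7, 11.7 and 18.5 in fibroblasts. Without mural cells in the fibroblast gate, Spp1, Pla2g7, Fcgr2b and AW112010 passed among these 19 genes, and the others had an edgeR adjusted p between 0.108 and 0.261. Without T and NK cells in the myeloid gate, Slc16a3, Ptpre, Pgam1, Pkm, Pgk1, Rps27 and Rpl17 did not pass.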

How the results depend on the processing

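Genes called were 6070 in epithelial cells, 5269 in fibroblasts, 885 in myeloid cells and 672 in all 3. With the DESeq2 Wald test they were 4042, 1845, 309 and 206. The fibroblast count was 3419 without mural cells. The myeloid count and the count in all 3 became 1754 and 1185 with DESeq2 size factors, 2229 and 1376 without TMM, 1825 and 1225 without mitochondrial genes, 1807 and 1173 without a filter on low counts, 1821 and 1230 with cells up to 20% mitochondrial, 1801 and 1216 with a UMI minimum per cell, 1939 and 1261 with strict gates, 1853 and 1247 with a scaled C1q gate, and 2415 and 1698 with BD 2 added. Without T and NK cells the myeloid count was 1352. The cause was not tested. Differences between fibroblasts and epithelial cells (143) numbered 36 with the Wald test, 512 without a filter, 8 with 20 or more UMIs per sum, 233 with strict gates, 442 with BD 2 added and 2 without mural cells (558 at an unadjusted p under 0.05). Those between myeloid and epithelial cells (26) numbered 107 with the Wald test, 226 without a filter, 192 with 20 or more UMIs, 59 with cells up to 20% mitochondrial, 48 with a UMI minimum, 207 with strict gates, 105 with the scaled C1q gate, 15 with higher gates, 108 and 40 with the BD subsets 1 and 2, 275 with BD 2 added, 3 with BD 2 in place of fresh BD, and 0 by edgeR without T and NK cells (964 at an unadjusted p under 0.05). Those between myeloid cells and fibroblasts (128) numbered 279 without a filter, 268 with strict gates, 194 with the scaled C1q gate, 324 with BD 2 added, 70 with BD 2 in place, 9 without mural cells and 54 without T and NK cells. The share of differences that were higher was 49.7%, 73.1% and 71.1% for the 3 pairs, 40.8%, 34.2% and 52.8% with DESeq2 size factors, and 33.5%, 75% and 85.8% without TMM. For myeloid against epithelial cells it was also 10.2% with BD subset 1 and 17.5% with BD 2 added. Directions that turned were the fibroblast chemokine sum (0.046 to -0.002 with higher gates and -0.141 with BD subset 2), the epithelial immediate early sum (0.083 to -0.066 with BD 2 in place), Klf2 in fibroblasts (0.453 to -0.209 with BD subset 1, -0.682 with BD 2 in place and -0.079 with the replicate block), Socs3 in fibroblasts (0.584 to -0.0142 with BD subset 1 and -0.161 with BD 2 in place), Pgk1 between myeloid cells and fibroblasts (1.17 to -0.0809 with BD subset 1), Apoe in fibroblasts (0.534 to -0.0874 with BD subset 1) and Ly6c1 in epithelial cells (1.42 to -0.448 with BD 2 in place). Of the gene fold changes recomputed, 4592 kept direction, and the call where a test was run. A further 156 kept direction and lost the call, and 7 turned. The 4592 include untested values with 1 fresh 10x library left out. They also include refits of compartments that an alternative left unchanged, so they overstate stability. Of gene differences, 731 kept direction and call, 200 kept direction and lost the call, and 1 turned. Leaving out 1 fresh 10x library leaves 1 against 1, which gives values with no test. Replicate numbers were shared by fresh 10x and, with BD 2 as the second, BD: with the replicate block 8315, 5540 and 2085 genes were called in the compartments and 1500 in all 3. Same-numbered deviations correlated across genes at 0.111, -0.00834 and -0.00566 in the 3 compartments. The labels do not say whether same-numbered libraries share a tumour or a run, and these correlations cannot decide it. The myeloid sums are the smallest.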
